A study of Mus musculus with 6 samples.

Results

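The pentose phosphate pathway is represented here by 6 enzyme genes, chosen by name from the 54532 genes of the deposited table: Pgls, Pgd, Rpia, Rpe, Tkt and Taldo1. They are not all of its genes. Each was found once and had a mean FPKM (a read count scaled for gene length and library size) of at least 1, the minimum for testing. RNA was sequenced from 6 mouse libraries labelled MIN6, an insulinoma-derived beta cell line, with 3 libraries labelled control (titled shc) and 3 labelled PP2Ac knockdown (titled sh2). PP2Ac is the catalytic subunit of protein phosphatase 2A. The labels name no lipid or other treatment and no culture time, and the sources do not say whether a group is a single clone or comes from separate cultures, so that p-values measure only the spread between these samples.

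The pathway branches from glycolysis. Its oxidative branch, to which the lactonase PGLS and the dehydrogenase PGD belong, reduces NADP to NADPH, the reductant for glutathione, thioredoxin, fatty acid and sterol synthesis. The product, ribulose phosphate, is turned into ribose phosphate by the isomerase RPIA or into xylulose phosphate by the epimerase RPE, and transketolase (TKT) and transaldolase (TALDO1) rearrange these sugars reversibly into glycolytic intermediates. Ribose phosphate is the sugar of nucleotides.

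The libraries held 14614737 to 16030939 recovered reads. Ppp2ca, the gene for the alpha catalytic subunit, had 42.5, 34.6 and 35.6 FPKM in control and 10.1, 11.4 and 10.9 FPKM in knockdown, so every knockdown library was below every control library (log2 change -1.70, SE 0.0917, limma adjusted p = 5.35e-06). The cell type label was not borne out by beta cell transcripts. Of 16 beta cell markers, 8 were listed at 0 in all 6 libraries, among them Ins1, Ins2, Nkx6-1 and Slc2a2. In total 14 were below the testing minimum. The 2 tested were both higher in knockdown. Pdx1 went from 1.68 ± 0.499 to 3.96 ± 0.309 FPKM and Mafa from 1.78 ± 0.435 to 4.86 ± 0.854 FPKM (SD, n = 3). The list summed to 3.02 to 4.70 FPKM in control and 8.21 to 9.85 FPKM in knockdown. Of 16 stromal, endothelial and macrophage markers, 7 were tested, 6 of them higher and 1 lower in knockdown, and the list summed to 436 to 487 FPKM in control and 1005 to 1148 FPKM in knockdown, most of it Vim (426 ± 27.3 to 952 ± 69.2 FPKM; SD, n = 3). The fibroblast collagen genes Col1a1, from 9.95 ± 1.39 to 86.9 ± 3.05 FPKM, and Col3a1, from 0.834 ± 0.304 to 31.7 ± 4.58 FPKM (SD, n = 3), rose further, with log2 changes of 3.01 and 4.16 against 1.16 for Vim; the lower gene was Cd68, and Lum, Cdh5 and Adgre1 were listed at 0. Of 10 other islet, acinar and duct markers 3 were tested, 1 higher and 2 lower, and Gcg, Sst, Ppy and Amy2a5 were listed at 0; this list, mostly Spp1, summed to 681 to 849 FPKM in control and 355 to 393 FPKM in knockdown. The part of these markers in the results below was not tested. In bulk RNA, fewer cells of a type and less RNA per cell cannot be told apart.

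Of the 6 pathway genes described, 4 were higher in knockdown (Pgd, Taldo1, Tkt and Pgls) and 2 were lower (Rpe and Rpia), at a limma adjusted p of 0.05 over all 11652 genes tested. Changes were common in this comparison: 62.4% of all tested genes passed, 33.3% higher and 29.1% lower, and since the 6 are a part of the pathway's genes, no share of the pathway is read from their count. On the recovered reads, limma with voom weights gave the same 4 and 2 calls, with 63.3% of all genes called, 32.9% higher and 30.4% lower. The 3 libraries of a group lay wholly above the 3 of the other for each of the 6 genes, which was the case for 68.1% of tested genes. The median log2 change of all genes tested was 0.03. All fold changes are knockdown minus control on the log2(FPKM + 1) scale unless another setting is named. The added 1 makes the changes of genes with low FPKM smaller than those of the FPKM alone.

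**Figure D1:**
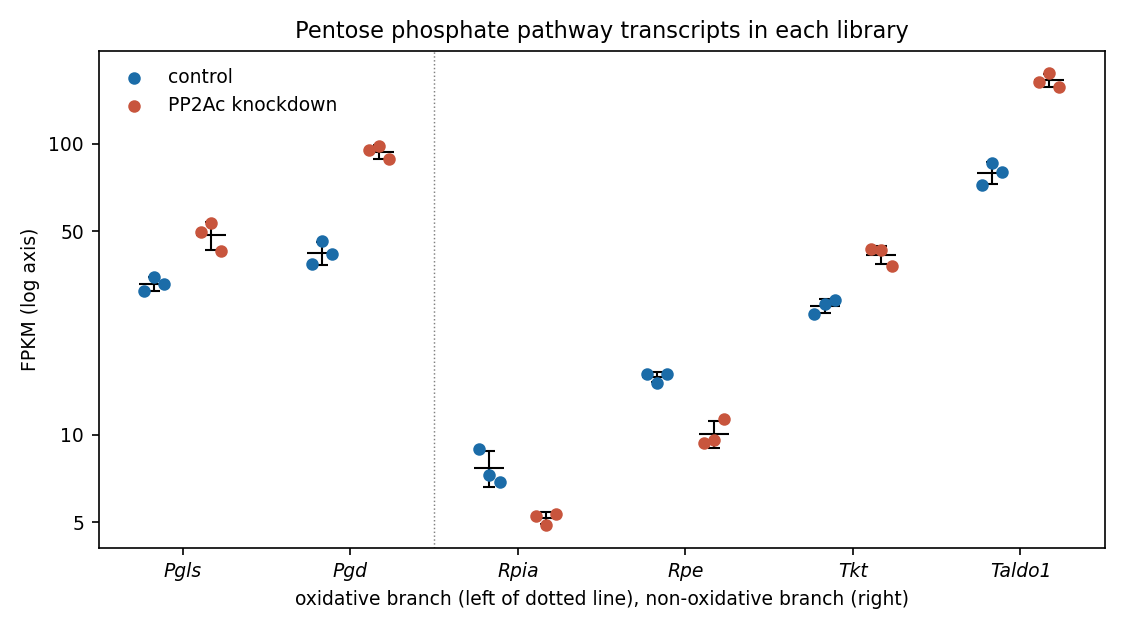
FPKM (log axis) of the 6 pathway genes in each of the 3 control and 3 knockdown libraries; points are libraries, horizontal bars the mean and whiskers the SD. The groups are apart for each of the 6, upward for Pgls, Pgd, Tkt and Taldo1 and downward for Rpia and Rpe.

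The sequences before the transcription starts are shown for the largest rises, Pgd and Taldo1, and for both genes that fell, Rpia and Rpe, since these are the genes that moved furthest in each direction. They come from RefSeq on GRCm38.p6 and run 5′ to 3′ on the strand of the gene, and capitals mark the letters CCAAT or their reverse complement ATTGG. The windows are chr4:149166706-149166955 (minus strand), chr7:141391910-141392159 (plus strand), chr6:70792233-70792425 (minus strand) and chr1:66700581-66700830 (plus strand). Each covers the 250 bases before the RefSeq start, except that of Rpia, from which 57 bases inside the annotated transcript were left off.
Pgd: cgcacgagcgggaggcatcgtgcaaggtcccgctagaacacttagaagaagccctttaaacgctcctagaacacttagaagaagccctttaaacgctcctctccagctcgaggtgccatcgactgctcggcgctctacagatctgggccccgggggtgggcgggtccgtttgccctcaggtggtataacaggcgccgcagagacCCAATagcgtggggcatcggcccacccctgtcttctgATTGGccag
Taldo1: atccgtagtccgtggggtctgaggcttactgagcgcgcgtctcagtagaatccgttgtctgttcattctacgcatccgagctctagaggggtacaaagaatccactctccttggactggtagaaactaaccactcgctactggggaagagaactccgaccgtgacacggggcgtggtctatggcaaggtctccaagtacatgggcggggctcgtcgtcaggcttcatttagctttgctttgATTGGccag
Rpia: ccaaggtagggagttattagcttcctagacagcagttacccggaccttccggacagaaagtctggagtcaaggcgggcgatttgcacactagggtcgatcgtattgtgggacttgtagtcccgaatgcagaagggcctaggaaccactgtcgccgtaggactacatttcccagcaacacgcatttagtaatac
Rpe: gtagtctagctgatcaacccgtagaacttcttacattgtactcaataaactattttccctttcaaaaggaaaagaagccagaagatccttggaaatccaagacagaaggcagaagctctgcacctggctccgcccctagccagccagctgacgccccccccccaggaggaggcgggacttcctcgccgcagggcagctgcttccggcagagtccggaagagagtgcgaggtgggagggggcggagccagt

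Pgd and Taldo1 end in the same 11 letters, tgattggccag, directly before the RefSeq start. It was the longest run shared by any 2 of the 6 genes, and was picked for that from these same sequences. The next longest had 10 letters and was shared by Tkt and Taldo1. The picked run was in 24 of 32851 promoters of the table (0.0731%), those of Pgd and Taldo1 included. That share describes a run picked for its length, and whether such a run arises by chance was not tested. The position of the run holds for the RefSeq starts only. The last 2 letters of the Pgd window lie inside the annotated coding transcript. For Taldo1 the annotated coding start is 141392199, downstream of the RefSeq start at 141392160. CCAAT or ATTGG was found before Pgd (2 matches, 46 and 9 bases before the start) and Taldo1 (1 match, 9 bases before the start), and in none of the windows of the other 4 genes. It was present in 33.8% of all promoters over 250 bases and in 8.56% over the last 50. These letters were chosen after the sequences and the expression values were seen. Of 3 other motifs, searched on both strands in the 7 RefSeq windows of the 6 genes, none had a match: the core of the antioxidant response element (TGACNNNGC, in 10.2% of all promoters), the sterol response element (TCACNCCAC, 1.05%) and the E-box (CACGTG, 6.02%). No match says only that these letters are not in these windows. A match is a description of letters, not of binding.

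Both oxidative branch genes described rose. Pgls (ENSMUSG00000031807, chromosome 8, 71592176 to 71601092, plus strand, GRCm38) encodes the lactonase. Control libraries had 31.2, 34.8 and 33.0 FPKM and knockdown libraries 49.6, 53.5 and 42.8 FPKM, with no overlap. It rose from 33.0 ± 1.80 to 48.6 ± 5.42 FPKM (SD, n = 3), to 148% of control, with a log2 change of 0.54 (SE 0.0922, limma adjusted p = 0.00116). Exons of the downstream gene Fam129c on the same strand share 776 of its exon bases (20.6%), and reads from that stretch cannot be told apart. Fam129c itself fell, from 4.37 ± 0.230 to 2.72 ± 0.173 FPKM (SD, n = 3), the opposite direction.

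Pgd (ENSMUSG00000028961, chromosome 4, 149149991 to 149166771, minus strand), whose enzyme reduces NADP to NADPH and releases ribulose phosphate, had the largest change of the 6. Its reads numbered 3997, 4625 and 4412 in control and 9480, 9717 and 8532 in knockdown. In FPKM it stood at 38.8, 46.2 and 41.7 in control and 95.1, 98.4 and 88.6 in knockdown, 223% of control, with a log2 change of 1.14 (SE 0.0831, limma adjusted p = 1.80e-05). Only 3.55% of tested genes had a higher log2 change.

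Among the non-oxidative genes, the enzymes of sugar rearrangement rose. Taldo1 (ENSMUSG00000025503, chromosome 7, 141392199 to 141402968, plus strand) had 72.3, 85.9 and 80.3 FPKM in control and 164, 175 and 157 FPKM in knockdown. Its means were 79.5 ± 6.83 and 165 ± 8.89 FPKM (SD, n = 3), a log2 change of 1.05 (SE 0.0837, limma adjusted p = 2.73e-05), and 4.44% of tested genes changed further upward. Tkt (ENSMUSG00000021957, chromosome 14, 30548359 to 30574720, plus strand), which encodes the thiamine-dependent transketolase, had 26.0, 28.2 and 29.0 FPKM in control and 43.4, 43.2 and 38.1 FPKM in knockdown. It rose to 150% of control, with a log2 change of 0.57 (SE 0.0783, limma adjusted p = 0.000379). Neither gene's groups overlapped, and the ratio of Taldo1 to Tkt moved from 2.87 ± 0.158 to 3.98 ± 0.191 (SD, n = 3), so Taldo1 gained more.

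The genes for both enzymes that act on ribulose phosphate fell. Rpe (ENSMUSG00000026005, chromosome 1, 66700831 to 66719805, plus strand), the epimerase gene, had 16.2, 15.0 and 16.1 FPKM in control and 9.33, 9.54 and 11.3 FPKM in knockdown, every knockdown library lying below every control library. Its mean went from 15.8 ± 0.648 to 10.1 ± 1.10 FPKM (SD, n = 3), 63.8% of control, with a log2 change of -0.60 (SE 0.0852, limma adjusted p = 0.000430). Its last exon lies opposite the gene Kansl1l, with 558 shared exon bases (17.9%), and the strand setting is not stated. Kansl1l also fell, from 2.33 ± 0.401 to 1.53 ± 0.176 FPKM (SD, n = 3), at 144 to 300 reads per library against 449 to 824 for Rpe.

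Rpia (ENSMUSG00000053604, chromosome 6, 70765720 to 70792232, minus strand), the isomerase gene that leads to ribose phosphate, had 8.91, 7.28 and 6.89 FPKM in control and 5.23, 4.87 and 5.35 FPKM in knockdown. It was the lowest of the 6 in FPKM and rested on 400 to 764 reads per library. It fell to 66.9% of control, with a change of -0.49 in log2(FPKM + 1) (SE 0.0980, limma adjusted p = 0.00262) and no overlap between groups. Control library 1 was the highest, and without it that change was -0.39 (limma adjusted p = 0.00622). On the recovered reads of all 6 libraries, limma with voom weights gave a log2 change of -0.59. An exact two-sided permutation of the libraries gave p = 0.1 for each of the 6 changed genes, the minimum that groups of 3 can reach.

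**Figure D2:**
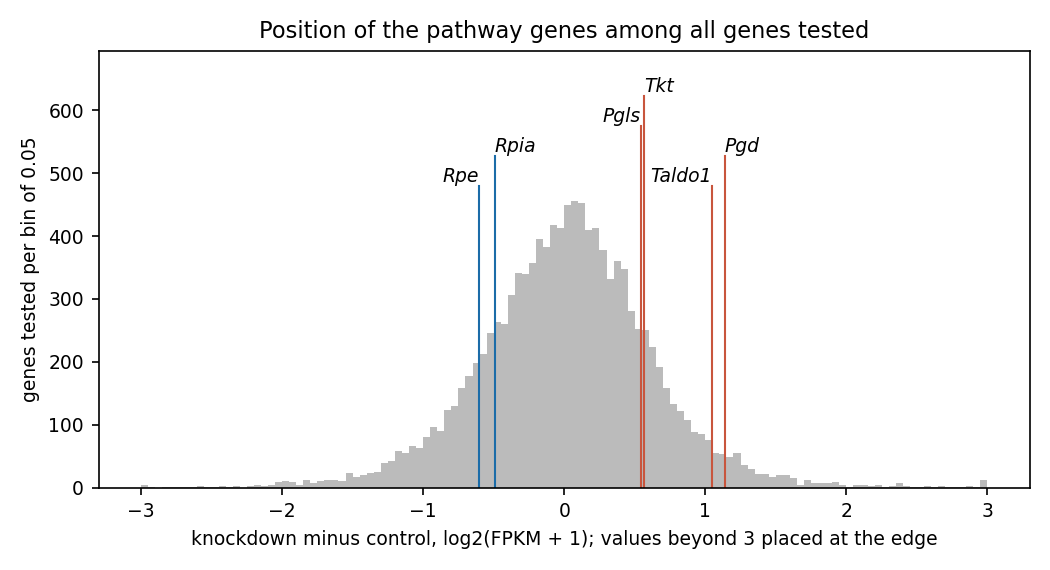
Log2 changes of all 11652 genes tested (grey histogram, genes per bin of 0.05, values beyond 3 placed at the edge) with vertical lines at the 6 pathway genes, whose heights only separate the names. Pgd and Taldo1 lie in the upper tail, Tkt and Pgls on the upper shoulder and Rpia and Rpe on the lower shoulder.

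Ratios within a library do not depend on how libraries were scaled. Pgd to Pgls stood at 1.24, 1.33 and 1.26 in control and 1.92, 1.84 and 2.07 in knockdown, so within the oxidative branch Pgd gained more. Pgd to Rpia went from 5.59 ± 1.08 to 18.3 ± 1.81 and Pgd to Rpe from 2.69 ± 0.352 to 9.44 ± 1.41 (SD, n = 3), with no overlap. The sum of Rpia and Rpe relative to the sum of Tkt and Taldo1 went from 0.255, 0.196 and 0.211 to 0.0703, 0.0661 and 0.0853, a mean of 0.335 times the control ratio. The ratio of Rpe to Rpia overlapped between groups, at 1.82 to 2.34 in control and 1.79 to 2.12 in knockdown. These ratios were not tested separately, and their absolute size depends on the gene lengths used. For a ratio of single genes the change between groups does not, while that of the summed genes does. Per kilobase of the longest coding transcript, Rpia plus Rpe relative to Tkt plus Taldo1 averaged 0.216 in control and 0.0747 in knockdown.

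**Figure D3:**
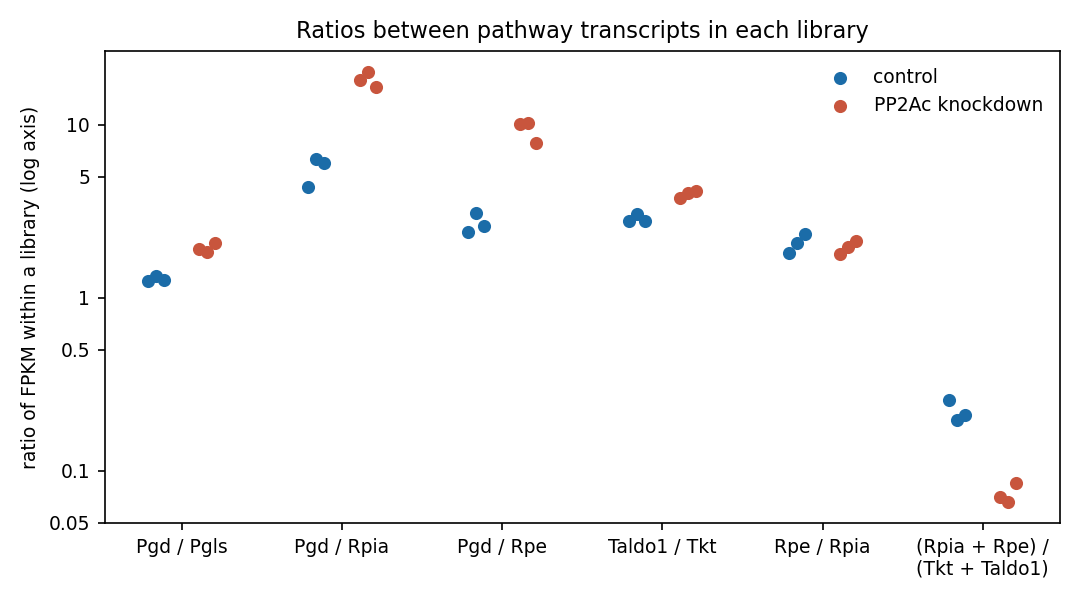
Ratios of FPKM between pathway genes within each library (log axis), 3 control and 3 knockdown libraries each. Pgd to Pgls, Pgd to Rpia, Pgd to Rpe and Taldo1 to Tkt are higher in all knockdown libraries, Rpe to Rpia overlaps, and Rpia plus Rpe against Tkt plus Taldo1 is lower in all of them.

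In FPKM the order of levels in control was Taldo1 (79.5), Pgd (42.2), Pgls (33.0), Tkt (27.7), Rpe (15.8) and Rpia (7.69), with no overlap in range between neighbours. In knockdown the order was the same, at 165, 94.0, 48.6, 41.6, 10.1 and 5.15 FPKM, and only Pgls and Tkt overlapped as neighbours. The summed FPKM of the 6 genes was 206 ± 12.1 in control and 365 ± 20.5 in knockdown (SD, n = 3). The share of Taldo1 in that sum went from 38.6% ± 1.07 to 45.3% ± 0.597 and that of Pgd from 20.5% ± 0.681 to 25.8% ± 0.189. The shares of the other 4 genes were lower in every knockdown library than in any control library, with Pgls going from 16.0% ± 0.0842 to 13.3% ± 0.757 and Tkt from 13.5% ± 0.523 to 11.4% ± 0.405 (SD, n = 3), although the FPKM of both rose. Rpia and Rpe together made up 25.1, 22.3 and 23.0 FPKM in control and 14.5, 14.4 and 16.7 FPKM in knockdown.

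The order of levels and the shares of the sum depend on the gene length. For each of the 6 genes the length in the table equals all annotated exon bases combined, retained introns and noncoding transcripts included, such as 3770 bases for Pgls and 6447 for Pgd, whereas their longest coding transcripts have 1062 and 2218 bases. Per kilobase of the longest coding transcript, control levels were 127 for Taldo1, 123 for Pgd, 117 for Pgls, 63.2 for Tkt, 22.5 for Rpia and 18.1 for Rpe, with reads scaled for library size as in FPKM. On that scale Taldo1, Pgd and Pgls overlapped as neighbours, and Rpia stood above Rpe. In knockdown Pgd (273 ± 14.5) and Taldo1 (263 ± 14.2) overlapped at the top (SD, n = 3). With coding transcript lengths the share of Taldo1 in the sum of the 6 genes went from 26.9% ± 0.766 to 31.7% ± 0.618. That of Pgd went from 26.1% ± 0.833 to 32.9% ± 0.320 (SD, n = 3). Neither length is known to be that of the transcripts present, and the change of a gene between groups is the same on both scales.

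**Figure D4:**
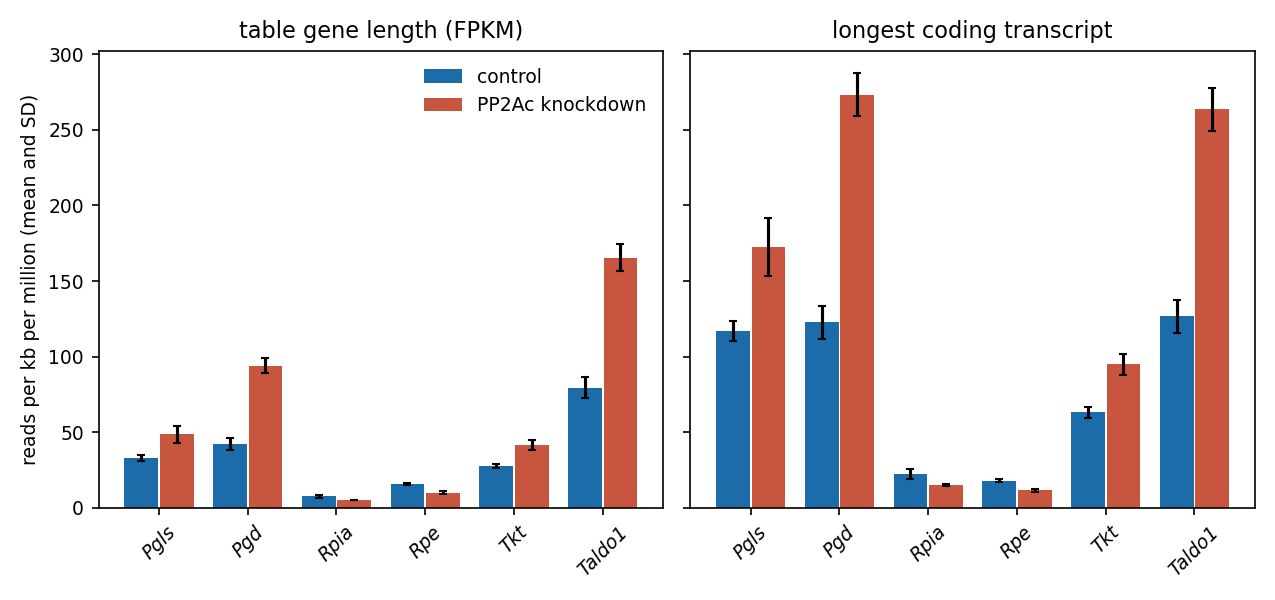
Mean level with SD of the 6 genes in control and knockdown (3 libraries each), with reads divided by the table's gene length (left) and by the longest coding transcript (right), both scaled for library size. In control Taldo1 stands alone at the top on the left and close to Pgd and Pgls on the right, and Rpia is below Rpe on the left and above it on the right.

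Other genes of the pathway and of ribose handling moved in part. Of 15 listed, 12 were tested, with 6 rising, 2 falling, 4 missing the threshold and a median log2 change of 0.19; 66.7% changed, against 62.4% of all genes. H6pd, which encodes an enzyme that makes NADPH in the endoplasmic reticulum, had 10.1, 10.6 and 11.0 FPKM in control and 24.8, 24.2 and 22.0 FPKM in knockdown. Its log2 change of 1.09 (SE 0.0725, limma adjusted p = 1.16e-05) stood close to the 1.14 of Pgd, which encodes a cytosolic NADPH-making enzyme. Of the transketolase-like genes, Tktl2 was listed at 0 in all libraries and Tktl1 was below the minimum in both groups (0.254 ± 0.0325 and 0.0534 ± 0.0275 FPKM; SD, n = 3).

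The genes that turn ribose phosphate into PRPP, the activated sugar of nucleotide synthesis, were higher in part. Prps1 rose from 22.7 ± 0.975 to 32.6 ± 0.902 FPKM, Prps2 from 10.1 ± 1.76 to 17.1 ± 0.987 and the associated protein gene Prpsap1 from 22.9 ± 1.66 to 33.5 ± 1.13 (SD, n = 3). Prps1l3 (log2 change -0.25, limma adjusted p = 0.0586) and Prpsap2 (0.08, adjusted p = 0.458) did not pass. Shpk, the sedoheptulose kinase gene, fell to 65.9% of control and Rbks, the ribokinase gene, to 60.1%. Their changes in log2(FPKM + 1) were -0.37 and -0.44, while voom on the recovered reads gave -0.60 and -0.72. Both had low levels of 1.17 to 2.10 FPKM as group means.

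**Figure D5:**
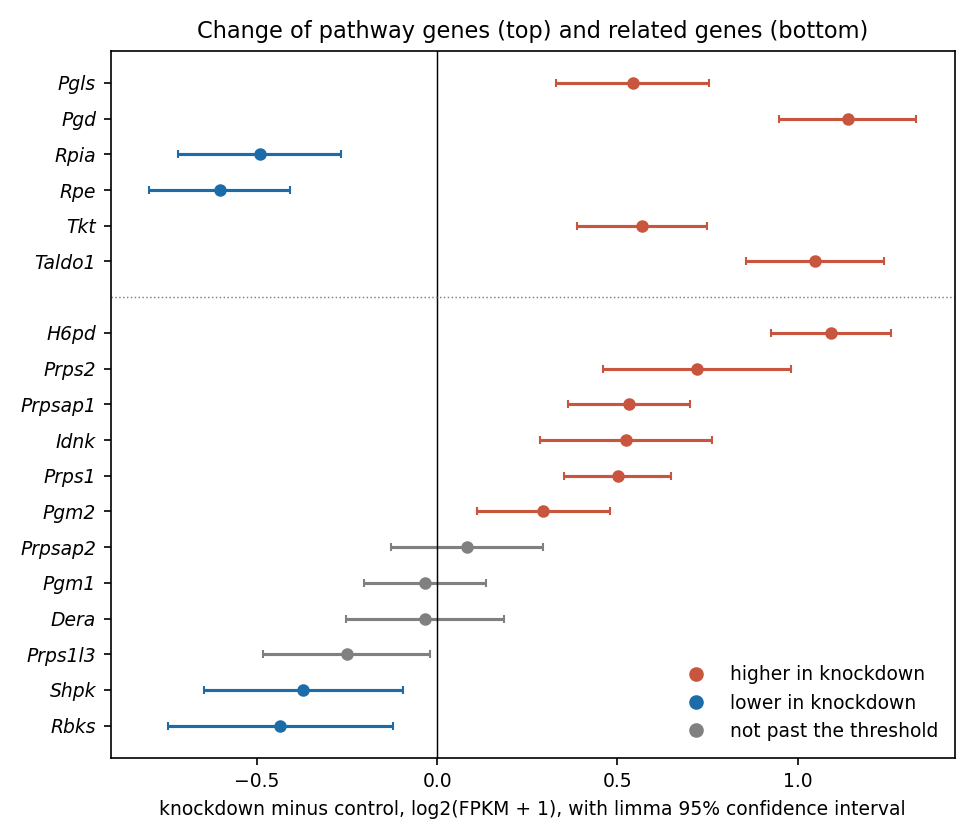
Knockdown minus control on the log2(FPKM + 1) scale with the limma 95% confidence interval, for the 6 pathway genes (top) and the 12 tested related genes (bottom), 3 libraries a group. Intervals of Pgd, Taldo1 and H6pd lie furthest to the right, and those of Prpsap2, Pgm1 and Dera include 0.

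Of 12 genes for enzymes of purine and pyrimidine synthesis and salvage, all tested, 6 rose, 3 fell and 3 missed the threshold, with a median of 0.27; 75.0% changed, against 62.4% of all genes tested (33.3% higher and 29.1% lower). Cad, the entry enzyme of pyrimidine synthesis, rose from 20.3 ± 0.856 to 34.5 ± 0.593 FPKM, Gart, of purine synthesis, from 16.6 ± 0.444 to 23.8 ± 0.317 and Dhodh from 2.34 ± 0.238 to 3.76 ± 0.207, while the salvage gene Hprt fell from 78.8 ± 6.29 to 49.6 ± 2.14 (SD, n = 3).

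Of 12 tested genes for other NADPH sources, related folate enzymes and NAD kinases, 5 rose, 3 fell and 4 missed the threshold. The median was 0.14, and the 66.7% changed lie near the 62.4% of all genes. The isocitrate dehydrogenase genes Idh1, cytosolic, and Idh2, mitochondrial, rose from 8.46 ± 1.59 to 19.2 ± 0.516 and from 27.6 ± 1.60 to 44.9 ± 3.45 FPKM. The mitochondrial folate enzyme genes Aldh1l2 and Mthfd2 fell from 58.0 ± 3.67 to 20.2 ± 0.803 and from 81.6 ± 2.31 to 52.0 ± 2.65 FPKM (SD, n = 3 each).

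Genes whose enzymes consume NADPH were higher for 11 of 15 tested, while 2 fell and 2 missed the threshold, with a median of 0.72; 86.7% changed, against 62.4% of all genes, of which 33.3% were higher. Blvrb, a biliverdin reductase gene, rose from 25.2 ± 2.59 to 103 ± 10.2 FPKM and Dhcr7, of sterol synthesis, from 5.03 ± 0.294 to 16.9 ± 2.51 (SD, n = 3); Cyp51 and Fasn had log2 changes of 1.28 and 1.34. The list includes lipid synthesis genes and was chosen with earlier results of these data known, so its direction is not independent evidence.

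Of 13 tested glycolytic and related genes that share sugar phosphates with the pathway (Aldoa names 2 genes in the table and was counted for each), 6 rose, 3 fell and 4 missed the threshold. The median was 0.50, and the 69.2% changed lie near the 62.4% of all genes. The 2 Aldoa entries went opposite ways. The higher one rose from 180 ± 11.4 to 277 ± 18.2 FPKM, and the lower one fell from 8.01 ± 1.07 to 4.79 ± 0.385 FPKM (SD, n = 3). Hk2, a hexokinase gene, fell from 20.0 ± 1.64 to 9.20 ± 0.846 FPKM and the phosphofructokinase gene Pfkp from 5.30 ± 0.289 to 2.62 ± 0.105. Its paralogue Pfkl rose from 10.2 ± 0.547 to 18.4 ± 1.57 and Tpi1, of triose phosphate interconversion, from 195 ± 11.7 to 315 ± 16.4 (SD, n = 3). Tigar, whose product is known to divert sugar phosphate toward the pathway, had a log2 change of -0.02 (limma adjusted p = 0.895).

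Of 14 known regulators tested, 4 rose, 8 fell and 2 missed the threshold, with a median of -0.26; 85.7% changed, against 62.4% of all genes (33.3% higher and 29.1% lower). Keap1, which encodes the repressor of NRF2, rose from 12.9 ± 0.766 to 25.1 ± 2.05 FPKM, and Nfe2l2, which encodes NRF2, had 46.8 ± 3.61 and 40.2 ± 2.67, with overlapping groups, and passed narrowly (log2 change -0.21, limma adjusted p = 0.0498). Maff, a partner of NRF2 in DNA binding, fell from 44.0 ± 3.01 to 22.9 ± 1.22. Srebf1, a lipid synthesis regulator, rose from 46.1 ± 4.98 to 95.5 ± 9.91 and Hif1a fell from 23.1 ± 3.23 to 11.5 ± 0.848 (SD, n = 3). Transcript levels of these regulators do not measure their activity.

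The protein-coding genes whose profile over the 6 libraries lay closest to that of Pgd, among 4959 others with a mean FPKM of at least 10, were Dnajc22, Klhdc2, Abhd11, Scarf2 and Gnai2, at root mean square distances of 0.0349, 0.0382, 0.0435, 0.0544 and 0.0583 on the log2 scale. Their log2 changes ran from 1.10 to 1.17, against 1.14 for Pgd, a closeness that follows from how they were chosen. No other pathway gene was among the 5.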

How the data were processed

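The authors deposited 1 table of FPKM values per gene and library, with gene lengths; per the submitters' processing notes the builds are GRCm38 and mm10, while neither aligner nor counting tool nor strandedness is named in these sources. Total RNA was taken up in TruSeq libraries, per the labels' protocols. FPKM times gene length was a whole multiple of 1 step for 100% of non-zero values (within 0.01), which gave the reads; depth was 14614737 to 16030939 reads. Median-of-ratios factors computed on the FPKM were 1.00 in all 6 libraries, so that planned rescaling left every value as it was.

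Libraries were compared with limma (version 3.58.1, R 4.3.3; trend, Benjamini-Hochberg, threshold 0.05) on log2(FPKM + 1), keeping genes whose mean reached 1 FPKM, 3 control against 3 knockdown libraries. It was also run on simulated data in which far fewer genes changed than were called here. Nothing is concluded from that run. Alternatives were pseudocounts, filters, scalings, no trend, voom on the recovered reads (7378 genes called against 7267), leave-one-out fits and a block on replicate number; coding transcript length was added after the data were seen. Members, gene lists and motifs were chosen with earlier results of these data known. Of the 7 genes chosen by name 1, and 1 gene of another list, are not reported here, and counts and sums cover the rest. Named were Ppp2ca, the 6 members, up to 4 genes with the smallest p per other list, overlapping genes and copies, and the 5 nearest profiles to the member with the largest change. Fam129c and Kansl1l are overlapping genes, and Tigar, Nfe2l2, Shpk, Rbks, Prps1l3, Prpsap2 and Aldoa were added after their values were seen. Exons are from GENCODE M21, in which 98.3% of the shared genes had the table's position. Promoters from RefSeq (GRCm38.p6) matched the 6 genes; scipy 1.17.1, pandas 2.3.3 and numpy 2.4.6 ran under Python 3.11.15.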

Additional observations from a re-analysis of the deposited data

How the results depend on the processing

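Of the 17 alternatives 1, median-of-ratios scaling, left every value as it was and could not differ. In all 17 the 4 higher and 2 lower pathway genes kept their direction and their side of the threshold. Their log2 changes ran from 0.98 to 1.20 for Pgd, 0.89 to 1.11 for Taldo1, 0.41 to 0.63 for Tkt, 0.39 to 0.63 for Pgls, -0.64 to -0.39 for Rpia and -0.76 to -0.56 for Rpe; removal of mitochondrial genes, rRNA and Gm23935 gave the smallest rise of each of the 4 genes and the largest fall of both others. In that setting the remaining genes were also rescaled to each library's full FPKM sum, which multiplies all genes of a library by the same factor. Removal with this rescaling moved the median of all genes from 0.03 to -0.12. The split of calls went from 3879 higher and 3388 lower to 2835 and 4454. Raising the minimum mean to 5 FPKM left 2208 genes called lower, fewer genes being tested. The number of genes called higher when a library was left out was 3434 to 3730, and lower 2974 to 3219. The summed non-oxidative genes were 1.70 times control in FPKM and 1.48 times in reads, and Tkt plus Taldo1 1.93 and 1.69 times. Long genes weigh more in reads, and reads are not scaled for library size. Pgd alone, for which length cancels, was 2.23 times control in FPKM and 2.13 times in reads. Same-numbered libraries deviated together with r = -0.01, 0.16 and 0.05 across genes, so the numbers were not taken to pair them; the replicate block gave 3919 higher and 3444 lower genes and the same 4 and 2 pathway calls (Pgd 1.14, adjusted p = 0.000311).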

Other observations

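Knockdown library 3 was, of the 3 knockdown libraries, the nearest to the control mean for all 6 changed pathway genes, and control library 1 was the farthest from the knockdown mean for all 6. Among all 7267 genes called, knockdown library 3 was the nearest for 54.7% and control library 1 the farthest for 47.0%, so these positions are common outside the pathway too. For Ppp2ca the knockdown libraries had 10.1, 11.4 and 10.9 FPKM (SD 0.617). These values lie too close together to give an order to compare with the pathway genes.

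Scarf2 and Gnai2, close to Pgd in profile, had means of 27.8 ± 2.17 and 68.6 ± 1.58 FPKM in control and 63.9 ± 6.70 and 153 ± 11.0 FPKM in knockdown (SD, n = 3). Their log2 changes were 1.17 and 1.14, near that of Pgd because they were chosen for a near profile.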
